A study of Mus musculus with 24 samples.

Results

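Foxp1, Foxp2, and Foxp4 encode forkhead transcription factors of the FOXP family, and one of their products, FOXP1, was itself among the proteins whose binding was mapped. The peaks of 6 lists that overlapped the body of any of these 3 genes, or the 50 kb on either side, were collected in mouse neocortex. They numbered 393 of the 314954 peaks on the main chromosomes, with 161 at Foxp1, 118 at Foxp2, and 114 at Foxp4. Of these, 102 touched a promoter, taken as the 2000 bp before each annotated transcription start site (TSS), 249 lay in a gene body away from promoters and are called intronic, and 42 lay in the flanks.

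FOXP proteins bind DNA through a forkhead domain, form dimers within the family, and act largely as repressors that recruit CTBP and NuRD corepressor proteins. In the developing cortex Foxp1 is known as a gene of projection neurons, Foxp2 as a gene of deep-layer neurons whose human counterpart is linked to speech, and Foxp4 as a more broadly expressed relative. ARID1B is a subunit of the BAF complex, which uses ATP to move nucleosomes, and TCF7L2 is a DNA-binding partner of beta-catenin in Wnt signaling.

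ChIP-seq recovers chromatin fragments with an antibody, and a peak is a place where they exceed a background. Here the background was 1 constant value per list, so input reads at a place did not enter its fold. The series holds 24 libraries of wild-type mouse cortex, 12 from ChIP and 12 from input, with 2 replicates for each transcriptional regulator (TR), stage, and kind of library. The antibodies recognized ARID1B, FOXP1, or TCF7L2, and the cortex was taken on embryonic day E15.5 or E18.5. The labels write TCF4 for the third target, and the antibody named in the study's methods is against TCF7L2. The tissue was whole cortex, so the peaks average over all of its cell types. Replicates had been merged before peaks were called, which leaves 1 list per TR and stage and no spread between replicates. Differences between lists are therefore given without a test. Depth was recovered from the lists, as the reads in whichever of ChIP and input had fewer. It was 26.3 M for FOXP1 at E18.5 and between 57.3 and 80.7 M elsewhere. For FOXP1 at E18.5 the input had fewer reads, so its ChIP was deeper than 26.3 M. The input also had fewer for ARID1B and TCF7L2 at E15.5, and the ChIP had fewer in the other lists.

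The height of a peak is given as fold enrichment, the scaled reads at its summit over the background with 1 added to both. A ChIP read counted 0.561 for FOXP1 at E18.5, and 0.775 for TCF7L2 and 0.856 for ARID1B at E15.5, where the ChIP was larger. In the other lists it counted as 1, and read counts given here are unscaled. Each fold carries a 95% Poisson interval on the reads at the summit, which covers counting error only. Heights depend on the antibody and depth, so they are comparable within a list and only loosely between lists.

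The sequences on which the results turn are shown first, as the plus strand of GRCm38 from 5′ to 3′. The first lay in an intron of Foxp1, where all 6 lists had a summit within the bases in capitals. The second lay in an intron of Foxp2, where capitals mark the bases between the outermost summits of ARID1B at both stages and FOXP1 at E15.5. The third is the coding exon of Foxp2 under the highest FOXP1 peak at E18.5, with the coding bases in capitals and 40 bases of intron on either side.
Foxp1 intron, chr6:99485729-99485814: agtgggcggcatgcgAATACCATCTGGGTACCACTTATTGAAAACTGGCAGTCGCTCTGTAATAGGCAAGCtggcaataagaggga
Foxp2 intron, chr6:14977244-14977338: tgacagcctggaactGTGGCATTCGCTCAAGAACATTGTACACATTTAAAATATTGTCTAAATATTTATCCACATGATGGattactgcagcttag
Foxp2 coding exon, chr6:15394600-15394893: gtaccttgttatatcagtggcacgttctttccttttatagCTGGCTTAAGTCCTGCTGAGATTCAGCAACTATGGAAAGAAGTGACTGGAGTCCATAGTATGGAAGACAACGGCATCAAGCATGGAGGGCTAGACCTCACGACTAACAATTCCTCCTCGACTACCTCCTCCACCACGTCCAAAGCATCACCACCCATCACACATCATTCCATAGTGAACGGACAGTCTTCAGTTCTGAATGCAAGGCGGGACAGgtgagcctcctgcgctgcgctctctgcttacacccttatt

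A feature of the FOXP1 list at E18.5 bears on every count at Foxp2 and is given before them. In that list 15 of the 17 peaks of the Foxp2 window lay on coding exons of Foxp2. Their folds ran from 11.7 to 32.3 with a median of 21.6, against a median of 5.71 over the whole list. The highest, at chr6:15394482-15395006, rested on 218 reads at a fold of 32.3 (28.2 to 36.9), which placed it within the top 0.0442% of the list. The remaining 2 peaks of the window lay at the 5′ promoter, with folds of 3.79 and 8.80. Between the promoter and the end of the gene, this list thus had no peak that did not touch a coding exon.

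The edges of these 15 peaks followed the edges of the coding sequence. Set against the exon boundaries used by most coding transcripts, they began 147 to 160 bases before the first coding base. They ended 152 to 162 bases after the last one. Against the union of all annotated coding bases, which the other counts use, the ranges were 141 to 160 and 80 to 162 bases. At the first coding exon, the 147 bases were counted from the start codon. In the last exon, the peak ended 159 bases after the coding bases and left most of the long untranslated part uncovered. Over the gene, peaks of this list covered 95.6% of the 2376 coding bases, 8.14% of the 13970 bases of other exons, and 0.796% of the introns.

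Coding exons 3 and 5 of the 18 were the ones without a peak. Exon 3 occurred in 2 of the 11 coding transcripts and exon 5 in 0 of them. Summits lay inside 14 of the 18 coding exons, 77.8%, which was the highest share among 9983 protein-coding genes with at least 8 coding exons. The next gene, Dixdc1, had summits in 6 of 22. In this list 0.01% of those genes reached a share of 50%, which is Foxp2 alone. The same share was reached by 1 gene in each of 2 other lists, Cux1 with 18 of 34 in FOXP1 at E15.5 and Zfhx2 with 5 of 9 in TCF7L2 at E18.5. These 3 genes were named after their values were seen, as were the coding exon peaks.

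No other list showed the pattern at Foxp2. FOXP1 at E15.5 had 0 of 18 coding exons under a peak, although that list had the higher recovered depth and reached down to a fold of 2.40. ARID1B at E15.5 and E18.5 overlapped 4 and 2 of them, with 0 and 1 summits inside, and TCF7L2 overlapped 0 at either stage. Foxp1, with 17 coding exons, had 0 under a peak in all 6 lists, FOXP1 at E18.5 included. Foxp4, with 16, had 2 under a FOXP1 peak at E18.5 and no summit inside. There, TCF7L2 at E18.5 lay over 9 of them with summits inside 3, and FOXP1 at E15.5 over 7 with no summit inside. ARID1B lay over 5 and 4 of them at E15.5 and E18.5, and TCF7L2 at E15.5 over 4, without a summit inside. Reads from Foxp2 chromatin and from spliced Foxp2 coding sequence both map to these exons. The source of these 15 peaks was not tested. Without them, 378 of the 393 peaks remain, 103 at Foxp2, and 237 of the intronic ones, and the main counts that hold them are given both ways.

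**Figure D1:**
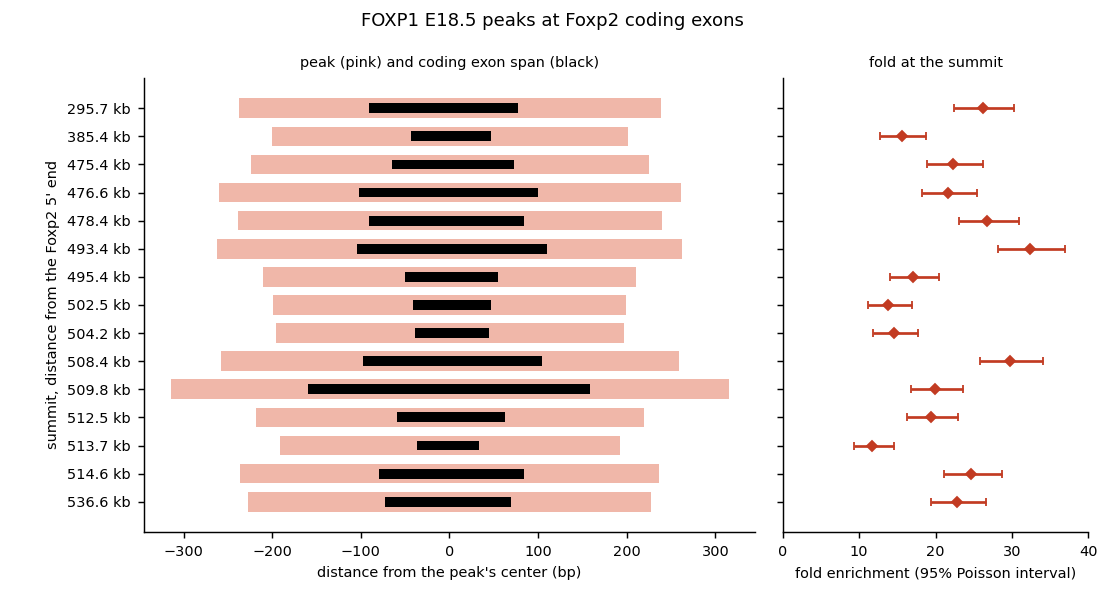
The 15 FOXP1 peaks at E18.5 on Foxp2 coding exons, ordered along the gene by the distance of the summit from the 5′ end in kb. Left, each peak (pink) and the span of coding bases under it in most coding transcripts (black, with a short intron inside the span at 509.8 kb) in bp from the peak's center, where the pink overhang is nearly constant at 147 to 162 bp. Right, fold enrichment with its 95% Poisson interval, from 11.7 to 32.3.

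Each of the 3 genes had a peak of all 3 TRs at its most 5′ promoter at both stages. A promoter peak in all 6 lists was found for 51.8% of the 21951 protein-coding genes, so the presence of these peaks is the common case. Their heights differed between genes and TRs.

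At the 5′ promoter of Foxp1 (chr6:99520998-99524721, minus strand), FOXP1 had the highest fold of the TRs, of 14.9 (12.4 to 17.9) at E15.5 and 13.1 (10.5 to 16.1) at E18.5. TCF7L2 reached 9.84 (7.97 to 12.0) and 9.52 (7.64 to 11.7), and ARID1B 7.39 (5.90 to 9.15) and 7.57 (5.71 to 9.86). By place within its own list the order was another, with TCF7L2 in the top 2.49% and 2.69%, FOXP1 in the top 3.11% and 2.79%, and ARID1B in the top 7.56% and 9.37%. The fold intervals of both stages overlapped for each TR. All 6 summits lay 86 to 142 bp upstream of the nearest TSS.

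The 5′ promoter of Foxp2 (chr6:14899349-14903456, plus strand) had its highest folds for ARID1B, which also stood highest by place within its own list. Its fold was 13.7 (11.6 to 16) at E15.5 and 18.1 (15.1 to 21.5) at E18.5, and the latter lay in the top 0.212% of that list. FOXP1 was at 13.0 (10.7 to 15.8) and 8.80 (6.74 to 11.3), and TCF7L2 at 9.11 (7.32 to 11.2) and 11.1 (9.02 to 13.4). Again the intervals of the stages overlapped for each TR. The 6 summits clustered 474 to 549 bp upstream of the nearest TSS, farther out than at Foxp1.

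At the 5′ promoter of Foxp4 (chr17:47924401-47926645, minus strand), FOXP1 was at 12.3 (9.97 to 15) and 8.65 (6.62 to 11.1), TCF7L2 at 7.02 (5.46 to 8.90) and 8.54 (6.76 to 10.6), and ARID1B at 5.26 (4.02 to 6.77) and 6.31 (4.62 to 8.42). By fold, the order of the 3 TRs at E15.5 was that of Foxp1. By place within the list at E15.5, FOXP1 was in the top 6.88%, TCF7L2 in the top 14.7%, and ARID1B in the top 22.9%. At E18.5, TCF7L2 was in the top 5.01%, ARID1B in the top 17.1%, and FOXP1 in the top 22.7%. Here too the stage intervals overlapped. Summits lay between 128 bp upstream and 23 bp downstream of a TSS.

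**Figure D2:**
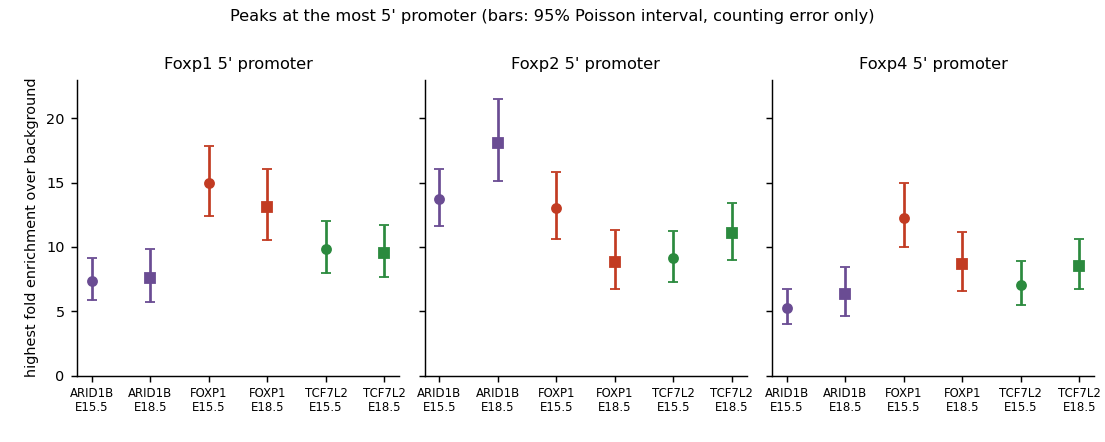
Highest fold enrichment (vertical axis) at the most 5′ promoter of Foxp1, Foxp2, and Foxp4 in each of the 6 lists, with 95% Poisson intervals; circles are E15.5 and squares E18.5. By raw fold, which is only loosely comparable between lists, ARID1B (purple) is lowest at Foxp1 and Foxp4 and reaches 18.1 at Foxp2 at E18.5.

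All 3 genes have internal promoters. The TSSs of Foxp1 fell into 11 clusters, those of Foxp2 into 6, and those of Foxp4 into 3, and a peak of at least 1 list touched 6, 5, and 3 of them, or 4 at Foxp2 without the coding exon peaks. Besides the 5′ promoters, clusters with a peak in all 6 lists numbered 1 at Foxp1 and 1 at Foxp4.

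The internal promoter of Foxp1 with all TRs lay 493.8 kb into the gene (chr6:99027992-99030942) and starts 5 coding transcripts. Folds there were 8.23 (6.37 to 10.5) and 6.30 (4.59 to 8.45) for FOXP1 at E15.5 and E18.5, 7.13 and 7.33 for TCF7L2, and 4.99 and 4.21 for ARID1B. Each was below the same list's fold at the 5′ promoter. Another 4 clusters of Foxp1, 3 of them starting no coding transcript, carried ARID1B alone at both stages with folds of 2.59 to 5.19. The other 5 clusters carried no peak, among them the one at 359.7 kb with 6 transcripts.

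At Foxp2, the internal promoter at 283.3 kb (chr6:15182647-15185562), which starts 6 coding transcripts, also had its highest folds for ARID1B. It measured 9.44 (7.74 to 11.4) at E15.5 and 11.2 (8.91 to 14) at E18.5. FOXP1 was at 6.20 (4.61 to 8.18) at E15.5 and had no peak at E18.5, and TCF7L2 was at 4.73 and 4.82. The FOXP1 folds of 26.2 and 22.3 at E18.5 in the clusters at 295.6 and 475.3 kb came from coding exon peaks described above.

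At Foxp4, the internal promoter at 45.7 kb (chr17:47878954-47880953) held all TRs at folds of 4.99 to 7.72. A cluster at 36.2 kb held ARID1B at 12.5 (10.6 to 14.8) and 13.6 (11 to 16.6), with summits 544 and 543 bp inside the transcript. It also held TCF7L2 at 10.5 (8.52 to 12.8) at E18.5 and FOXP1 at 3.16 (2.07 to 4.65) at E15.5. In the same locus, peaks of TCF7L2 at E15.5 (8.49) and of FOXP1 at both stages (8.23 and 5.85) ended short of the promoter. They are counted as intronic, so the edge of the promoter sets which lists this cluster holds. Neither of these clusters starts a coding transcript.

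Overlapping peaks of all lists joined into 137 loci, 58 at Foxp1, 51 at Foxp2, and 28 at Foxp4. Peaks of all 3 TRs, at either stage, met at 31 of them (22.6%, 95% Wilson interval 16.4 to 30.3), against 35.6% of all 93916 loci. Without the coding exon peaks it was 30 of 126 (23.8%). The share was 17.2% at Foxp1 (10 of 58), 15.7% at Foxp2 (8 of 51, or 7 of 40 without the coding exon peaks), and 46.4% at Foxp4 (13 of 28). Intronic loci with all 3 TRs were 7 of 48 at Foxp1, 4 of 38 at Foxp2 (3 of 29 without the coding exon peaks), and 6 of 13 at Foxp4, where 24.7% of loci in protein-coding gene bodies away from promoters had all 3 across the genome.

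ARID1B took part in 46 of 58 loci at Foxp1, 39 of 51 at Foxp2 (39 of 40 without the coding exon peaks), and 21 of 28 at Foxp4, where 78.3% of all loci had a peak of it. It was alone, at 1 or both stages, at 26, 21 (22 without those peaks), and 5 of them, against 26% of all loci. FOXP1 alone accounted for 6 loci at Foxp1, 12 at Foxp2, and 0 at Foxp4. Without the coding exon peaks, the 12 at Foxp2 became 1. Across the genome, FOXP1 was alone at 10.5% of loci. TCF7L2 alone accounted for 3, 0, and 5, against 8.02% of all loci.

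**Figure D3:**
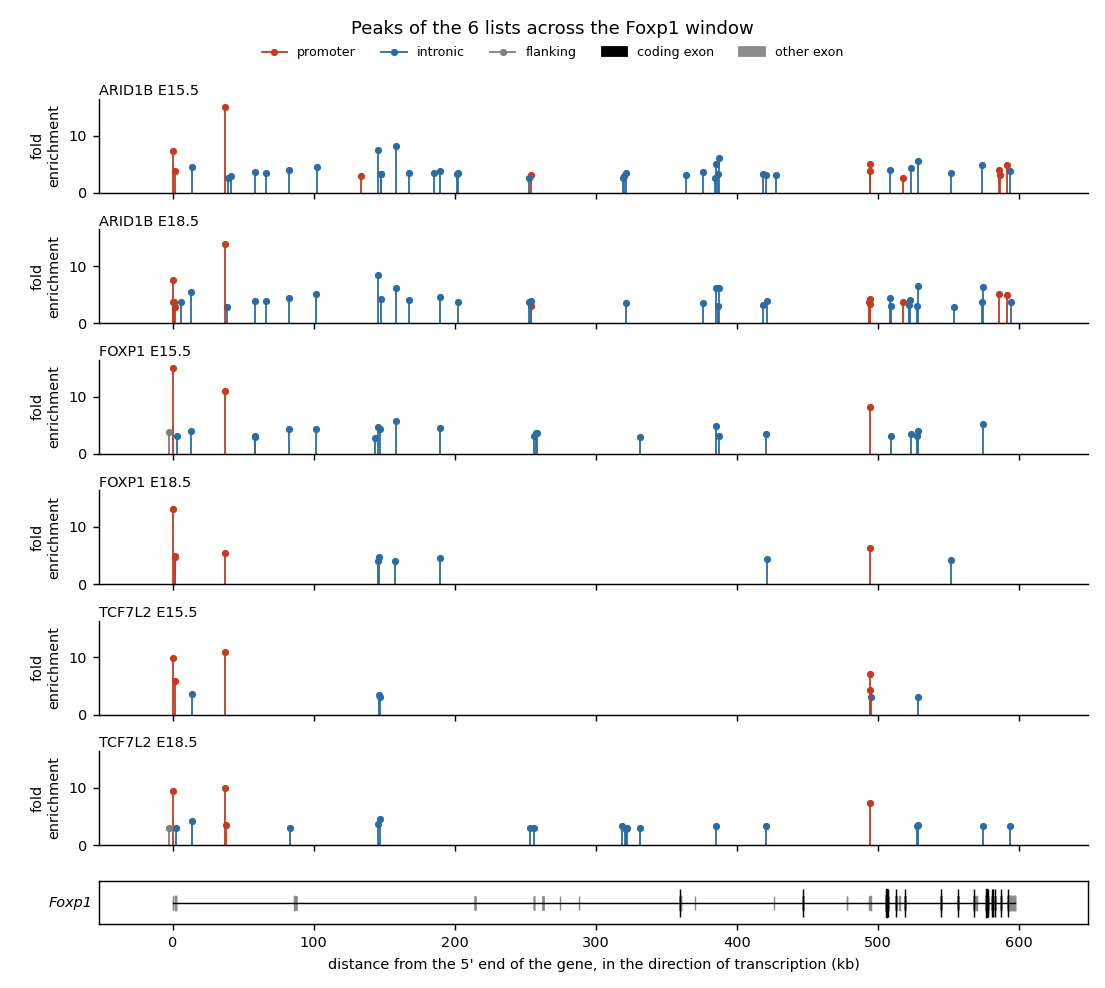
Peaks of the 6 lists in the Foxp1 window as stems at the summit's distance in kb from the 5′ end of the gene, with fold enrichment on the vertical axis; red stems touch a promoter, blue ones are intronic, and gray ones flank the gene. The bottom row draws the exons. ARID1B peaks are spread along the whole gene at both stages (46 and 44), while TCF7L2 at E15.5 (10) and FOXP1 at E18.5 (11) are few.

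Within Foxp1, ARID1B was highest 37.5 kb into the gene, in a locus at chr6:99483932-99486441. It counts as a promoter by rule because the annotated microRNA Gm22328 starts within it, and is otherwise intronic. All 6 lists had a peak there, and their summits lay between positions 99485744 and 99485799, in the capitals of the first sequence above. ARID1B reached 14.9 (12.8 to 17.4) at E15.5 and 13.9 (11.3 to 16.9) at E18.5. TCF7L2 was at 11 (9.0 to 13.3) and 9.96 (8.03 to 12.2), and the stage intervals of both TRs overlapped. FOXP1 was at 10.9 (8.72 to 13.4) at E15.5 and 5.41 (3.85 to 7.43) at E18.5. These intervals did not overlap, but they hold counting error only, and no stage difference was tested.

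A single intronic locus of Foxp1 away from annotated promoters was in all 6 lists, at chr6:99375514-99377721 and 146.1 kb into the gene. ARID1B was at 7.57 and 8.42 there, FOXP1 at 4.68 and 4.82, and TCF7L2 at 3.37 and 4.49. The other loci named for height lay at 157.9, 387.2, 528.3, and 574.5 kb. At each of them ARID1B was the highest TR at E18.5, with folds of 6.17 to 6.59, and FOXP1 had a peak at E15.5, with folds of 3.04 to 5.70. FOXP1 at E18.5 had a peak at the first of the 4 only.

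**Figure D4:**
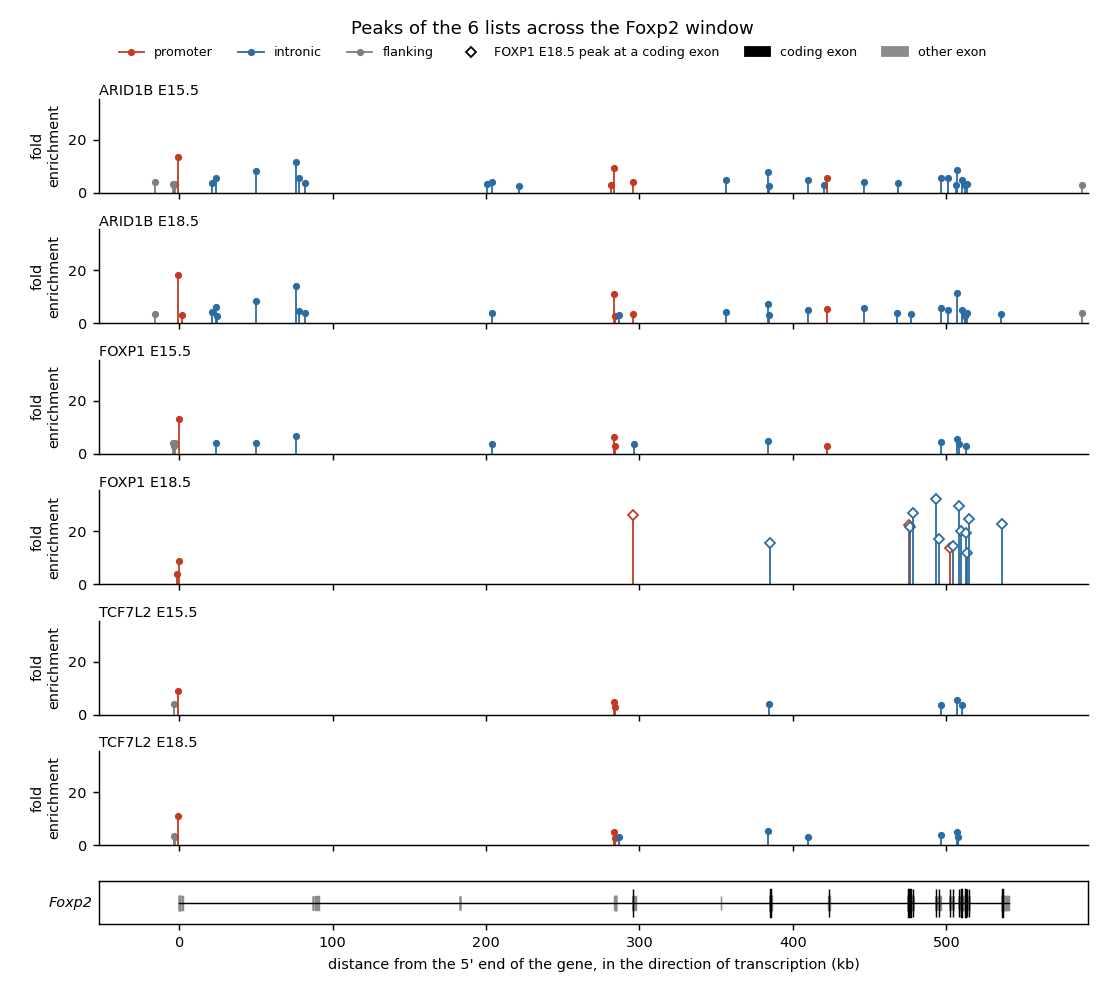
Peaks of the 6 lists in the Foxp2 window, drawn by distance from the 5′ end in kb and fold enrichment, with promoter, intronic, and flanking peaks in red, blue, and gray. Open diamonds mark the FOXP1 peaks at E18.5 on coding exons, which stand between 11.7 and 32.3 above a row of exons that the other lists leave mostly bare.

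Within Foxp2, the highest intronic locus other than the coding exon peaks lay at chr6:14976817-14977573, 75.8 kb into the gene. ARID1B measured 11.7 (9.84 to 13.9) there at E15.5 and 14.2 (11.6 to 17.2) at E18.5, in the top 1.25% and 0.831% of its lists. FOXP1 measured 6.71 (5.04 to 8.76) at E15.5, and TCF7L2 had no peak at either stage. The 3 summits lay between positions 14977259 and 14977323, in the capitals of the second sequence. A locus at 49.9 kb had the same composition, with ARID1B at 8.10 and 8.42 and FOXP1 at 3.92 at E15.5. Both were chosen after their values were seen, since coding exon peaks filled the places that the naming rule gives to height.

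Near the 3′ end of Foxp2, the locus chr6:15407723-15410097 was in all 6 lists. ARID1B was at 8.46 (6.86 to 10.3) and 11.4 (9.04 to 14.1), FOXP1 at 5.44 (3.96 to 7.31) at E15.5, and TCF7L2 at 5.67 (4.28 to 7.37) and 4.82 (3.52 to 6.45). Their summits fell between positions 15408270 and 15408384. The sixth list entered by the coding exon peak of FOXP1 at E18.5, with a fold of 29.7 and its summit at 15409773. Without it, 1 locus of Foxp2 had peaks in all 6 lists, the 5′ promoter.

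**Figure D5:**
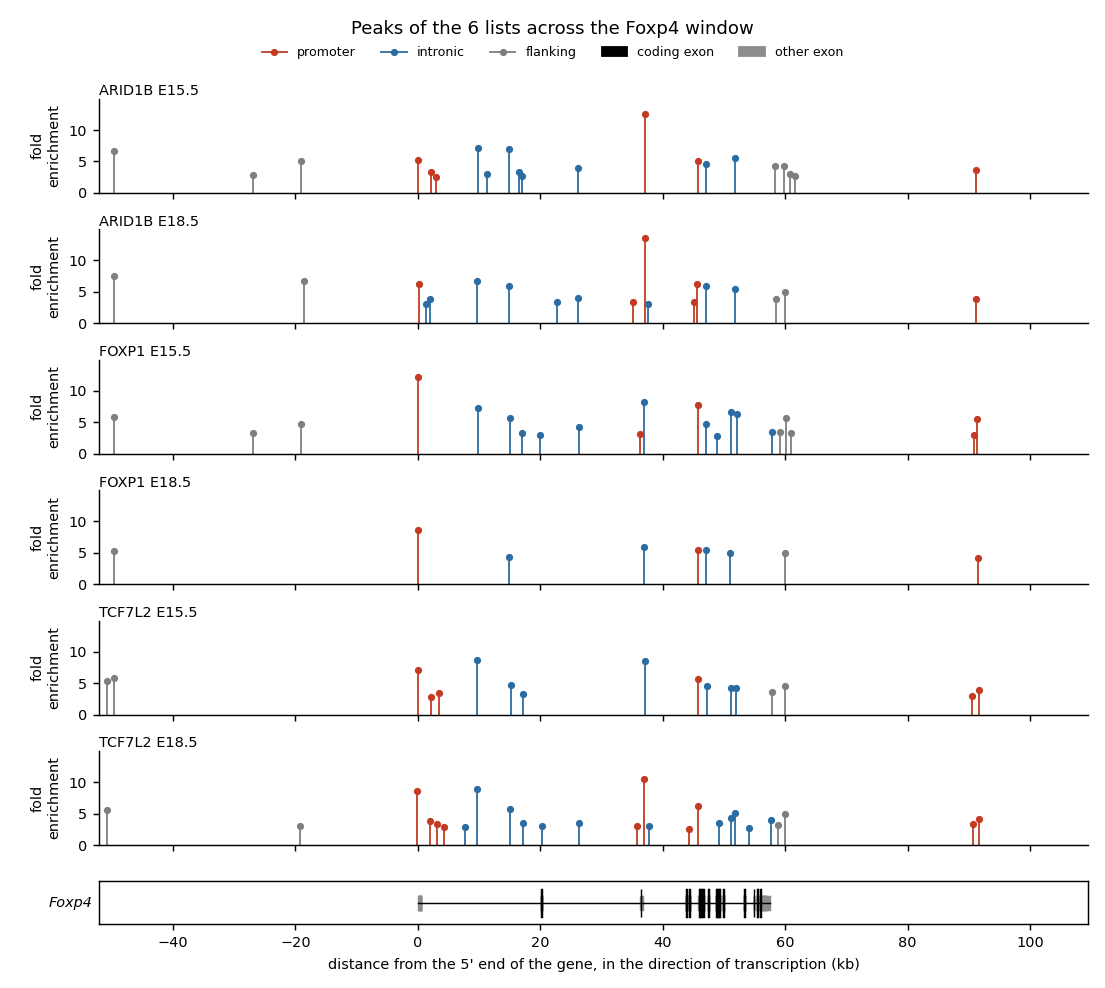
Peaks of the 6 lists in the Foxp4 window by distance from the 5′ end in kb and fold enrichment, colored as promoter (red), intronic (blue), and flanking (gray). In a gene of 57.5 kb many stems recur at the same distance in several lists, and 8 of the 28 loci have peaks in all 6 lists.

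Foxp4 is the shortest of the 3 genes, at 57.5 kb against 597.4 kb for Foxp1 and 540.6 kb for Foxp2. Its window held 8 loci with peaks in all 6 lists, of 28, while Foxp1 had 4 of 58 and Foxp2 2 of 51 (1 of 40 without the coding exon peaks), and 17.7% of all loci did. ARID1B was highest 36.7 kb into the gene, in a locus at chr17:47886747-47889045. It was at 12.5 and 13.6 there, TCF7L2 at 8.49 and 10.5, and FOXP1 at 8.23 and 5.85. In the 2 intronic loci with all 6 lists, at 14.8 and 51.7 kb, folds stayed between 4.31 and 6.95.

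At 9.7 kb (chr17:47914308-47915650) TCF7L2 was highest, at 8.69 (6.94 to 10.8) and 8.87 (7.05 to 11), with ARID1B at 7.21 and 6.73, FOXP1 at 7.21 at E15.5, and no FOXP1 peak at E18.5. In the flanks of Foxp4, all 6 lists had a peak 60 kb after the gene's 5′ end, just past its 3′ end, with folds of 4.28 to 5.70. They also had one at the upstream edge of the window, with folds of 5.27 to 7.57. Another locus with 6 lists was the promoter of Mdfi, the gene next to Foxp4, with folds of 3.57 to 5.57. A flanking locus 18.8 kb upstream carried ARID1B at 5.08 and 6.73, FOXP1 at 4.68 at E15.5, and TCF7L2 at 2.96 at E18.5.

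Peaks away from promoters were counted per 100 kb of gene body, to set genes of different length side by side. Summed over the 6 lists, Foxp1 had 19.9 per 100 kb and Foxp2 14.6, against a median of 7.50 over protein-coding genes of at least 100 kb. Of those genes, 17.6% were denser than Foxp1 and 27.2% denser than Foxp2. Without the coding exon peaks, Foxp2 had 12.4, and 32.1% were denser. The order of these 2 genes turned when peaks with a −log10 p under 15 were left out. Genes denser than Foxp1 were then 28.3%, and those denser than Foxp2 10.6%, or 18.9% without the coding exon peaks.

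Foxp4 had 88.7 per 100 kb. Only 8 of the 2489 long genes (0.321%) were denser, and 14 of 2510 protein-coding genes of 50 to 100 kb (0.558%), the length class of Foxp4. List by list, the share of long genes that were denser ran from 0.0804% for FOXP1 at E18.5 to 1.49% for ARID1B at E15.5.

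The profile over the 6 lists separated the genes further. For Foxp1, density was 5.86 and 5.36 for ARID1B, 3.85 and 1.00 for FOXP1, and 0.837 and 3.01 for TCF7L2, at E15.5 and E18.5. For Foxp2 it was 4.25 and 4.44 for ARID1B, 1.85 and 2.22 for FOXP1, and 0.740 and 1.11 for TCF7L2. The 2.22 of FOXP1 at E18.5 came from coding exon peaks in full, and it was 0 without them. For Foxp4 it was 13.9 and 15.6 for ARID1B, 19.1 and 6.95 for FOXP1, and 12.2 and 20.9 for TCF7L2, so that FOXP1 was densest at E15.5 and TCF7L2 at E18.5.

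The long genes nearest to each profile were taken by the Euclidean distance of log2(1 + density) over the 6 lists, a measure with no test. For Foxp1 they were Ank3 (0.21), Arhgef28 (0.35), and Ankrd44 (0.35). For Foxp4, Ephb2 (0.85) and Prex1 (0.86) were nearest. For Foxp2, E130308A19Rik (0.52) and Phactr2 (0.62) were nearest, and without the coding exon peaks the nearest became Eipr1 (0.28), Hs6st3 (0.43), and Pard3b (0.45).

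The stage comparison asks how many peaks of one list overlap a peak of the same TR at the other stage by at least 1 base. In the 3 windows, 73 of 100 ARID1B peaks at E15.5 met one at E18.5 (73.0%, 63.6 to 80.7), where 78.2% of all peaks of that list did. In the other direction it was 80 of 95 (84.2%, 75.6 to 90.2), against 85.5%. The whole lists held 71411 and 68447 ARID1B peaks.

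FOXP1 had 66 peaks at E15.5 and 37 at E18.5, or 22 without those at coding exons. Of the 66, 18 met a peak at E18.5 (27.3%, 18 to 39), against 34.2% of the list. Of the 37, 21 met one at E15.5 (56.8%, 40.9 to 71.3), against 96.3% of the list. Without the coding exon peaks it was 21 of 22 (95.5%). The 15 peaks thus account for all but 1 of the FOXP1 peaks seen at E18.5 alone. At Foxp1 itself, FOXP1 peaks went from 27 to 11 between the stages, and at Foxp4 from 22 to 9, while the whole list went from 64059 to 24872. The list at E18.5 had the lowest recovered depth, which was that of its input, and the part of depth in these numbers was not tested.

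TCF7L2 peaks went from 35 at E15.5 to 60 at E18.5, while its whole list went from 32992 to 53173. Of the 35, 33 met a peak at E18.5 (94.3%, 81.4 to 98.4), against 95% of the list. Of the 60, 28 met one at E15.5 (46.7%, 34.6 to 59.1), against 56.5%. The counts were 10 and 23 at Foxp1, 8 and 11 at Foxp2, and 17 and 26 at Foxp4. Among peaks at or above a fold of 3.21, a level all lists reach, 29 of the 35 and 37 of the 60 remained.

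FOXP proteins recognize a forkhead core, searched here as TGTTTAC, and TCF7L2 a TCF/LEF core, searched as ATCAAAG, both as exact letters on either strand within 200 bp around each summit. The cores do not overlap each other in sequence. Of the FOXP1 windows at E15.5, 9 of 66 held the forkhead core (13.6%, 7.34 to 23.9), where 2.89% of all windows of that list did. The share moved with the length searched. It was 4.55% in 100 bp windows, against 1.53% of the list, and 25.8% in whole peaks, against 7.61%. At E18.5 it was 2 of 37 (5.41%, 1.5 to 17.7), or 2 of 22 without the coding exon peaks, against 2.28%. The core was not particular to the FOXP1 lists, since 5 of 35 TCF7L2 windows at E15.5 held it (1.98% over the list) and 7 of 60 at E18.5 (2.17%). So did 8 of 100 ARID1B windows at E15.5 (3.49%) and 8 of 95 at E18.5 (3.46%). The TCF/LEF core lay in 1 of 35 and 2 of 60 TCF7L2 windows, against 2.36% and 2.58%. Windows of different lists at a locus share their sequence and are not independent.

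Over the windows of all 6 lists, the forkhead core lay at 16 places and the TCF/LEF core at 6. Of these 6, 2 were in TCF7L2 windows, and the other 4 were in windows of ARID1B or FOXP1 alone. As examples, 5 sequences that hold such places follow, with each motif in capitals. GTAAACA is the forkhead core read on the other strand.
Foxp4, chr17:47878880-47879006, at the internal promoter, in the windows of all 6 lists: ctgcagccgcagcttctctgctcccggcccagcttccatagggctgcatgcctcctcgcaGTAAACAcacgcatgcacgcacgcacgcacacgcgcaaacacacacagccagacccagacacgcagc
Foxp4, chr17:47887505-47887631, in the locus at 36.7 kb, in the windows of 5 lists: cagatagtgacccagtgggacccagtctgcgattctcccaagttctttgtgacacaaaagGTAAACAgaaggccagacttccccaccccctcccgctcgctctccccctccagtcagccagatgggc
Foxp4, chr17:47914792-47914992, in the intron at 9.7 kb, with both cores: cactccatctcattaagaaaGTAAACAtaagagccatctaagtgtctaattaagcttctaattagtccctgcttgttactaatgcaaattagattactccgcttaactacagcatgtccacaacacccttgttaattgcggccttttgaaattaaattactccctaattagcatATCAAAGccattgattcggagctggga
Foxp2, chr6:15285264-15285390, in an intron, in the windows of 4 lists: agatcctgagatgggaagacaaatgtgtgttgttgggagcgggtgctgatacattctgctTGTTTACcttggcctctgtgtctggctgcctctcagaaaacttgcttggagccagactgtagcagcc
Foxp2, chr6:14900855-14900992, upstream of the 5′ promoter's first TSS, in the windows of FOXP1 at both stages: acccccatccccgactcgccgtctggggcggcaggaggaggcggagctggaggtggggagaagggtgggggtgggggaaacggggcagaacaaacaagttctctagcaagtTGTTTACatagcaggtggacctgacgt

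The Foxp4 intron at 9.7 kb was the single place in the 3 gene windows where summit windows held both cores, 147 bases apart, and the TCF/LEF core there lay in the windows of 5 lists. TCF7L2 was the highest TR at that locus, as given above. The Foxp2 intron in the fourth sequence was in 5 lists, with ARID1B at 8.01 and 7.15, FOXP1 at 4.81 at E15.5, and TCF7L2 at 5.25 at E18.5 among those whose window held the core. In FOXP1 windows at E18.5, the forkhead core occurred at 2 of the 16 places, the 5′ promoter of Foxp2 and the internal promoter of Foxp4. A match in these letters is a description and not a shown binding site.

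Around the 3 genes, a list of 10 genes was read for promoter peaks. It holds the related Foxp3, corepressors that work with FOXP proteins, and known target genes. Peaks of all 6 lists lay at the promoters of 7 of the 10, against 51.8% of protein-coding genes. Over protein-coding genes with a FOXP1 promoter peak, the highest FOXP1 fold at the promoter had a median of 10.6 at the earlier stage and 8.65 at the later one. The folds that follow lie on both sides of these medians. Ctbp1 and Ctbp2, which encode the CTBP corepressors, had FOXP1 folds of 15.8 and 10.0 at the earlier stage, then 10.6 and 7.18. Gatad2b, a NuRD subunit gene, had 14.9 and 12.8. Of the histone deacetylase genes, Hdac1 had 11.1 and 9.68, and Hdac2 had 15.4 and 10.1. Mta1, another NuRD gene, had a peak in 5 lists, with ARID1B at E18.5 the one without. Its FOXP1 folds were 7.97 and 6.0, under both medians. Foxp3, a gene of regulatory T cells, had a FOXP1 peak of 8.48 at E15.5 and an ARID1B peak of 3.51 at E18.5, and none in the other 4 lists.

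Of the target genes, Cntnap2, which encodes a neuronal adhesion protein, had peaks in all 6 lists. ARID1B was at 7.04 and 7.71 there and FOXP1 at 7.34 and 4.38, under the FOXP1 medians. Mef2c, a transcription factor gene of neurons, also had them in all 6, with FOXP1 at 8.61 and 6.88, also under them. Srpx2 had a promoter peak in 0 lists.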

How the data were processed

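The study's methods state that the authors aligned reads with BWA to GRCm38, filtered them by mapping quality with SAMtools, merged replicates, and called narrow peaks with MACS2 against matched input, with no model, no local background, and reads extended to 200 bp. The submitters' processing notes name BWA 0.7.15 and MACS2 2.2.7. The authors' lists hold a ratio (fold enrichment at the summit), −log10 of the p-value and of the q-value, and a deposited score, which was not used. How the authors treated duplicate reads is not stated in what was read here.

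Peaks on chromosomes 1 to 19, X, Y, and M were assigned to genes of GENCODE vM21 by an overlap of at least 1 base. Loci are unions of overlapping peaks over the 6 lists. Background and read scale were fitted so that the Poisson model gives each list's pairs of fold and p-value; 100% of the distinct pairs matched within 0.01. The background times MACS2's mouse genome size over 200 bp gave the depth. The fit, loci, and assignment were tested on simulated data. Intervals are 95% Poisson for folds and Wilson for shares and cover counting error only. Sequences are from RefSeq's GRCm38.p6 FASTA. Python 3.11.15, NumPy 2.4.6, and SciPy 1.17.1 were used. Named loci were those at a promoter of the 3 genes, those in all 6 lists, and the 5 highest non-promoter loci per gene. The genes, lists, and settings were chosen with earlier results of these data known. Of the 3 genes of nearest profile per gene, some are not reported here.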

Additional observations from a re-analysis of the deposited data

How the results depend on the processing

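No paired analysis was possible because each list merges both replicates and no test was made; for the same reason no replicate could be left out. Of 249 recomputed values, 195 stayed within 1.5 times the count or within the interval given, and 54 did not. With a −log10 p of at least 15, counts per list fell to 36, 24, and 12 (ARID1B, FOXP1, TCF7L2 at E15.5) and 35, 18, and 16 (E18.5). The classes fell to 49 promoter, 80 intronic, and 12 flanking peaks. Loci fell to 52, with all 3 TRs at 30.8% of them with the stages pooled, or 8.33% at E18.5. Stage overlap was then 88.9% and 91.4% for ARID1B, 12.5% and 16.7% for FOXP1, and 100% and 62.5% for TCF7L2. Genes denser than Foxp1, Foxp2, and Foxp4 were 28.3%, 10.6%, and 0.121%, which turns the order of Foxp1 and Foxp2. The coding exon peaks passed this minimum in full and made up 15 of the 18 FOXP1 peaks at E18.5. Without them at this minimum, a choice made after seeing the data, FOXP1 at E18.5 had 3 peaks in 3 TSS clusters with a stage overlap of 100% and the forkhead core in 33.3%. There were 46 promoter and 68 intronic peaks and 39 loci. All 3 TRs were at 41.0% of these loci with the stages pooled, or 8.57% at E18.5, and 18.9% of genes were denser than Foxp2. Above a fold of 3.21, TCF7L2 had 37 peaks at E18.5, stage overlap was 89.0% (ARID1B, E15.5) and 70.3% (TCF7L2, E18.5), and denser genes were 19.3%, 23.6%, and 0.161%. Without the coding exon peaks there, FOXP1 at E18.5 had 22 peaks and a stage overlap of 95.5%, and 29.9% of genes were denser than Foxp2. With summits required inside, FOXP1 at E18.5 touched 4 TSS clusters in place of 7. Flanks of 10 and 100 kb gave 25 and 103 flanking peaks. With TSSs of coding transcripts alone, promoter peaks were 60, clusters with a peak 7 (ARID1B, each stage) and 5 (FOXP1, E15.5), and genes denser than Foxp4 0.161%. The forkhead core in FOXP1 windows at E15.5 was in 4.55% of 100 bp windows and 25.8% of whole peaks, and the TCF/LEF core in 0% of 100 bp TCF7L2 windows at E15.5. Without the coding exon peaks, a choice made after seeing the data, FOXP1 at E18.5 had 22 peaks and a stage overlap of 95.5%, and 32.1% of long genes were denser than Foxp2. The causes of these shifts, beyond fewer peaks, were not tested. The FOXP1 list at E18.5, of the lowest recovered depth, ended at a fold of 3.21, so weaker peaks were not detectable there. FOXP1 at E15.5 reached 2.40.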
